A study of Mus musculus with 4 samples.

Results

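The Schlafen genes were followed in mouse bone marrow-derived macrophages with and without a myeloid Mettl3 deletion. All 7 genes of the family that were set for study (Slfn1, Slfn2, Slfn3, Slfn4, Slfn5, Slfn8 and Slfn9) were found by symbol among the 55401 genes of the deposited expression table, and all 7 had enough counts to be tested. The knockout group (KO, 2 libraries, numbered 1 and 3) came from LysM-cre, Mettl3fl/fl mice, and the control group (WT, 2 libraries, also numbered 1 and 3) from Mettl3fl/fl mice without the driver. Mice of both groups carried the floxed alleles, were of the C57BL/6 strain and were 8 weeks old. Macrophages were derived from marrow with M-CSF and then spent 24 h in co-culture with MC38, a mouse colon carcinoma line, so no library shows cells without tumour contact. LysM-cre is active in cells of the myeloid lineage, and the controls lack Cre as well as the deletion. The labels do not say whether the tumour cells were removed before RNA was taken, and they give no meaning to a shared library number.

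Schlafen genes encode proteins with a shared AlbA-type fold and are found as a tight cluster in the mouse genome. Many of them are induced by type I interferon, which acts through the receptor IFNAR, the kinases JAK1 and TYK2 and transcription factors that bind promoter elements called ISREs. Mouse members are sorted by length into a short group (Slfn1, Slfn2), a middle group (Slfn3, Slfn4) and a long group with a helicase-like part (Slfn5, Slfn8, Slfn9). METTL3 is the catalytic subunit of the enzyme that writes N6-methyladenosine (m6A) on mRNA.

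The 7 genes lay within 263.8 kb of chromosome 11, from 82951349 to 83215154 in the coordinates of the deposited table. In that order they were Slfn5 (plus strand), Slfn9 and Slfn8 (minus strand), then Slfn2, Slfn1, Slfn4 and Slfn3 (plus strand). Coding lengths in GENCODE M21 were 1011 nt for Slfn1 and 1134 nt for Slfn2, 1920 nt for Slfn3 and 1806 nt for Slfn4, and 2652 nt for Slfn5 and 2730 nt each for Slfn8 and Slfn9. The coding sequences of Slfn8 and Slfn9 were 92.7% identical, as were those of Slfn3 and Slfn4, while the other pairs of members were 64.4% to 78.1% identical. Of all 150-base stretches of the members' transcripts, 1.5% of those of Slfn9 occurred exactly in Slfn10-ps, a neighbouring pseudogene, 1.3% of those of Slfn3 occurred in Gm11427, and 0% of those of the other 5 members occurred in another gene. At 50 bases the shared part was 14.6% for Slfn8, 11.5% for Slfn9, 15.6% for Slfn3 and 10.8% for Slfn4. It was 4.3% for Slfn2, shared with Slfn4, 3.4% for Slfn5 and 0.6% for Slfn1. The sources used here do not say how reads with several matches were counted. The split of reads within the pairs Slfn8 and Slfn9, and Slfn3 and Slfn4, is therefore uncertain. So is the split between these pairs and Slfn10-ps or Gm11427, and between Slfn2 and Slfn4.

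The windows from 250 bases before to 50 bases after the annotated start were taken for all 7 members from RefSeq (GRCm38.p6) and searched on both strands for GAAA, any 2 bases and GAAA, the core of the ISRE, and for the shorter AANNGAAA, the core bound by interferon regulatory factors, which can overlap the longer one. Shown are the 3 members with the longer core and the 2 members with the largest difference between genotypes, 5′ to 3′ on the gene's strand, with every match in capitals.
Slfn5, chr11:82951852-82952151, plus strand: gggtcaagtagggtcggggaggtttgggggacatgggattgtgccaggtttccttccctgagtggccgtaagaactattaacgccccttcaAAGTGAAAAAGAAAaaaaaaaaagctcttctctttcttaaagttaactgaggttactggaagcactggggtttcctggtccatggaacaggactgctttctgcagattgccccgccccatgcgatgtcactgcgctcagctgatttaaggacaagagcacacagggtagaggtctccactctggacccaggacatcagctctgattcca
Slfn8, chr11:83020761-83021060, minus strand: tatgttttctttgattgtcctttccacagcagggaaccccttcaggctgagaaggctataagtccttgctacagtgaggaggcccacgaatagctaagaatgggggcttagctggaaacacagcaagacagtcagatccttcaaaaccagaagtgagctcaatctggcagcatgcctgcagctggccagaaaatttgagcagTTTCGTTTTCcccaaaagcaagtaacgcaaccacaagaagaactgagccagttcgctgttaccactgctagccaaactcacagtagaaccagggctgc
Slfn9, chr11:82991781-82992080, minus strand: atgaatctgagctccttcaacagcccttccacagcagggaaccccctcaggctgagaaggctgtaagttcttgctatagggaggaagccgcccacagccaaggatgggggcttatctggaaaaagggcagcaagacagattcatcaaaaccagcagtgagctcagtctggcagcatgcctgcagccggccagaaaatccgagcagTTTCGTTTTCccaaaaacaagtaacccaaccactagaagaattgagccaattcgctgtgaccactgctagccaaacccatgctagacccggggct
Slfn1, chr11:83116570-83116869, plus strand: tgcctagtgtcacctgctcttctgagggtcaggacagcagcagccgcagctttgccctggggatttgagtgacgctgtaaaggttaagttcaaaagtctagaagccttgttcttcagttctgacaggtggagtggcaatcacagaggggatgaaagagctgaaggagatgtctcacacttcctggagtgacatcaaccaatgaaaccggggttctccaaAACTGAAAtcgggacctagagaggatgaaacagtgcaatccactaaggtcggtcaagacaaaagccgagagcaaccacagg
Slfn4, chr11:83174936-83175235, plus strand: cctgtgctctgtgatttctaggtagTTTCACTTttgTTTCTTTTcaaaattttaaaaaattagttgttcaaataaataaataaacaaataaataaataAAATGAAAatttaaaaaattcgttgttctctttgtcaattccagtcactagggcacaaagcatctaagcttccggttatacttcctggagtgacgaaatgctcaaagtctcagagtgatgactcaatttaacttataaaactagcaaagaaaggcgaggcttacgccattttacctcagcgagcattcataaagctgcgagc
The ISRE core occurred in 3 of the 7 members, against 4.0% of 27025 genes with such windows, and the shorter core in 7 of 7, against 26.7% of genes. Slfn8 has 2 annotated starts, and its match lay 48 bases before the one shown and 136 bases before the other. In Slfn9 the same 10 letters lay 45 bases before the start, in a window that was 84.9% identical to the Slfn8 window shown. TTCNNNGAA, the core of the interferon-gamma element GAS, occurred in 0 of the 7, against 9.6% of genes. A match describes letters, and binding was not measured.

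Levels between genes are compared as FPKM, the authors' value per kilobase of transcript, scaled to sequencing depth. Slfn2, which keeps T cells and monocytes quiescent, was the most abundant member in all 4 libraries. It stood at 201.7 and 279.6 FPKM in KO 1 and KO 3, against 184.1 and 198.6 FPKM in WT 1 and WT 3. Slfn5, whose human counterpart acts on interferon-dependent transcription, came next with 58.7 and 107.2 FPKM in the KO libraries, against 44.7 and 48.2 FPKM in the WT libraries. Slfn2 and Slfn5 together made up 85.99% and 88.2% of the summed Schlafen FPKM in KO 1 and KO 3, and 88.5% and 90.6% in WT 1 and WT 3. Slfn8, a long member, ranked 3 in every library, with 24.8 and 31.7 FPKM in the KO libraries and 20.4 and 19.6 FPKM in the WT libraries.

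The other 4 members were low, and their order changed between libraries. Slfn9, the close relative of Slfn8, stood at 6.66 and 4.81 FPKM in KO 1 and KO 3, against 4.42 and 2.18 FPKM in WT 1 and WT 3. Slfn1, a short member first described in T cells, stood at 6.75 and 6.23 FPKM in the KO libraries, against 2.68 and 1.17 FPKM in the WT libraries. It was the fourth most abundant member in both KO libraries, and the fifth in WT 1 and the seventh in WT 3. Slfn4, known from myeloid cells, stood at 1.56 and 5.60 FPKM in the KO libraries, against 0.865 and 1.18 FPKM in the WT libraries. Slfn3 stood at 2.64 and 3.20 FPKM in the KO libraries, against 1.41 and 1.47 FPKM in the WT libraries. For Slfn1, Slfn9, Slfn4 and Slfn3, 4 neighbours in the order of mean level, the ranges over all libraries overlapped. Within single libraries Slfn9 lay above Slfn3 each time, and the order of every other pair of these genes changed between libraries.

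**Figure D1:**
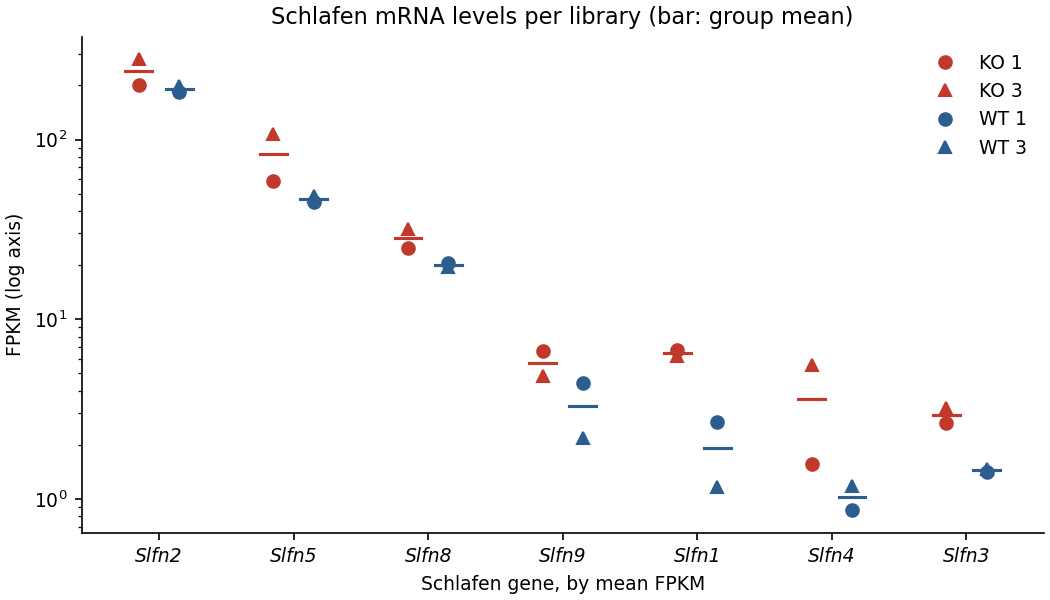
FPKM (log axis) of the 7 Schlafen genes in each library, KO in red left of WT in blue, circles for number 1 and triangles for number 3, with a bar at each group mean. Slfn2 lies between 184.1 and 279.6 FPKM, and for each gene both KO points lie above both WT points.

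The log2 fold change (KO over WT) was above 0 for all 7 members, as for 49.8% of the 17260 genes tested. Both KO libraries lay above both WT libraries for all 7, where 13.1% of those genes did so. The summed FPKM of the 7 was 302.8 and 438.4 in KO 1 and KO 3, against 258.6 and 272.4 in WT 1 and WT 3. Most of that gap was in KO 3, and without Slfn2 the sums were 101.1 and 158.7 in the KO libraries, against 74.5 and 73.8 in the WT libraries. In bulk RNA, more cells of a type and more RNA per cell cannot be told apart.

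**Figure D2:**
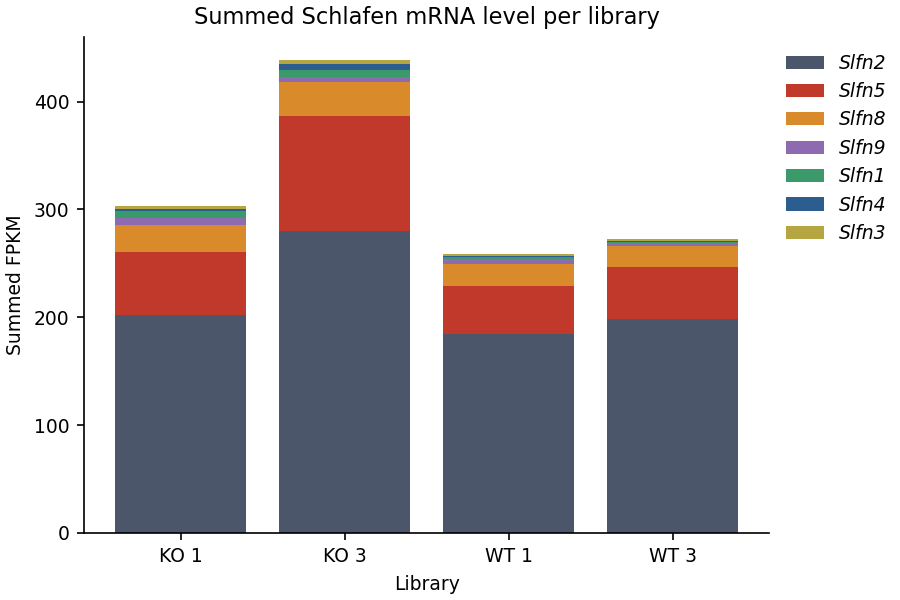
Summed FPKM of the 7 Schlafen genes per library, stacked by gene, KO libraries left of WT libraries. The bars reach 302.8 and 438.4 in KO 1 and KO 3 and 258.6 and 272.4 in WT 1 and WT 3, with Slfn2 the tallest segment in each.

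Tested across all genes with edgeR's quasi-likelihood test, 0 of the 7 members passed an adjusted p of 0.05, where 0% of the 17260 genes did. At an unadjusted p under 0.05, 4 members were higher in KO, where 1.3% of all genes were (391 genes in both directions). DESeq2, like edgeR fitted with genotype alone and no term for the library number, also called 0 of the 7, while it called 0.381% of the 19151 genes to which it gave an adjusted p. With the library number as a further term, DESeq2 called 2 members, Slfn1 and Slfn4, among 170 of 16421 genes, while edgeR called 0 genes. At an unadjusted p under 0.05, edgeR with that term had 6 of the 7 members, among 929 of 17260 genes in both directions. An exact permutation test of 2 libraries against 2 cannot go below p = 0.333. The study calls the libraries biologic replicates but names no animals, so these p-values measure the spread between the libraries at hand.

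Of the short members, Slfn1 had 14.0 and 13.0 CPM (counts scaled to a common library size by TMM) in the KO libraries, against 5.61 and 2.41 CPM in the WT libraries. The KO libraries were alike and the WT libraries differed. The fitted log2 fold change came to 1.75 ± 0.48 (± SE; edgeR unadjusted p = 0.0168, adjusted p = 1), and its DESeq2 adjusted p of 0.0958 was the smallest of the family. The log2 fold change was 2.49 without WT 1 and 1.27 without WT 3. Slfn2 averaged 447.1 ± 105.0 CPM in KO and 353.1 ± 13.0 CPM in WT (SD, n = 2 each), a log2 fold change of 0.34 ± 0.22 (± SE; edgeR unadjusted p = 0.191, adjusted p = 1). The most abundant member therefore had the smallest difference of the 7, and without KO 3 it was 0.08.

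In the middle group, Slfn3 averaged 11.1 ± 1.56 CPM in KO and 5.48 ± 0.0646 CPM in WT (SD, n = 2 each). Its log2 fold change of 1.02 ± 0.26 (± SE; edgeR unadjusted p = 0.0134, adjusted p = 1) had the smallest p of the family. It lay between 0.87 and 1.18 with any 1 library left out. Slfn4 had 6.91 and 24.9 CPM in KO 1 and KO 3, against 3.85 and 5.13 CPM in WT 1 and WT 3. KO 3 stood apart from the other 3 libraries. The log2 fold change of Slfn4 was 1.82 ± 0.67 (± SE; edgeR unadjusted p = 0.0458, adjusted p = 1), and was 0.62 without KO 3 and 2.48 without KO 1.

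In the long group, Slfn5 had 412.7 and 759.9 CPM in the KO libraries, against 317.2 and 334.4 CPM in the WT libraries, with a log2 fold change of 0.85 ± 0.33 (± SE; edgeR unadjusted p = 0.0551, adjusted p = 1). The WT libraries were close together and KO 3 was high. Slfn8 averaged 129.0 ± 23.0 CPM in KO and 90.9 ± 4.17 CPM in WT (SD, n = 2 each), with a log2 fold change of 0.51 ± 0.19 (± SE; edgeR unadjusted p = 0.046, adjusted p = 1). Slfn9 had 44.2 and 32.2 CPM in the KO libraries, against 29.6 and 14.3 CPM in the WT libraries. KO 3 lay just above WT 1, and the log2 fold change was 0.80 ± 0.41 (± SE; edgeR unadjusted p = 0.116, adjusted p = 1). It was 1.43 without WT 1, 0.37 without WT 3 and 0.57 without KO 1.

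Within each library number the difference was above 0 for all 7 members. This follows from both KO libraries lying above both WT libraries, so it is no second result. Of all genes tested, 25.8% were above 0 within both numbers. The difference was larger within number 3 than within number 1 for all 7, where 48.6% of all genes were. Slfn4 differed by 0.84 within number 1 and by 2.27 within number 3 on the log2 scale, Slfn1 by 1.31 and 2.42, and Slfn5 by 0.38 and 1.18. Slfn3 had the closest pair, 0.88 and 1.14. A pair of single libraries has no replicate, so the difference between numbers could not be tested. The libraries numbered 1 and 3 also differed in sex-linked transcripts. Xist, the X-inactivation RNA, stood at 0.624 and 1161 CPM in KO 1 and KO 3 and at 0.589 and 1351 CPM in WT 1 and WT 3, so number and sex coincide and cannot be told apart.

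The members did not shift together between the numbers. Slfn1 was lower in number 3 than in number 1 in both genotypes (log2 difference -0.10 in KO and -1.21 in WT), as was Slfn9 (-0.46 in KO and -1.05 in WT). Slfn4 was higher in number 3 in both genotypes (1.84 in KO and 0.41 in WT), as was Slfn5 (0.88 in KO and 0.08 in WT).

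**Figure D3:**
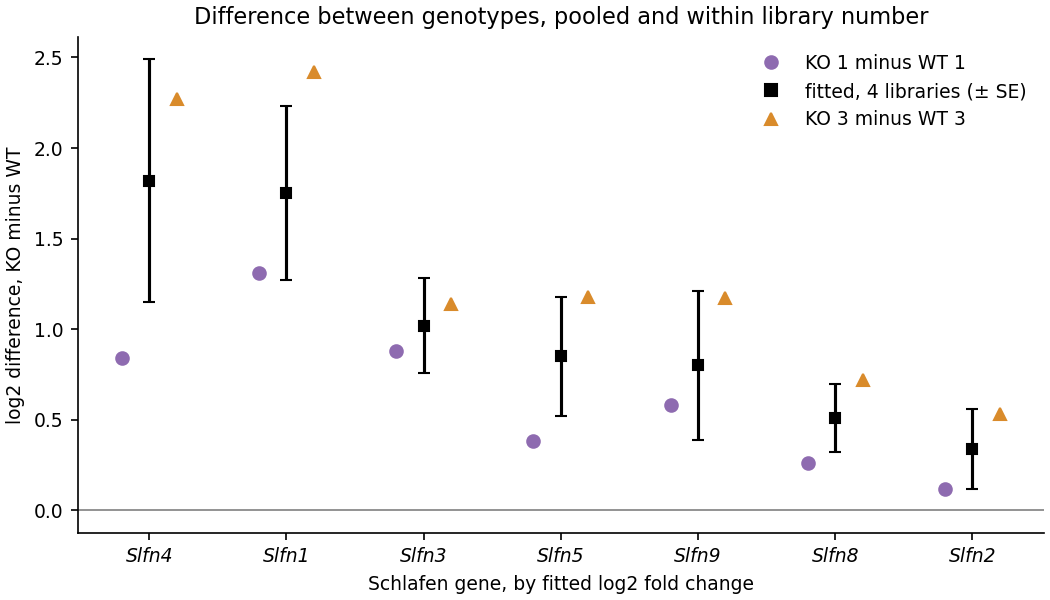
Log2 difference between KO and WT for the 7 Schlafen genes, with the fitted fold change of the 4 libraries as a square (± SE), the difference within number 1 as a circle and that within number 3 as a triangle. All points lie above 0, and the triangle is the highest of the 3 marks for each gene.

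The targeted gene was read as a check. Mettl3 stood at 13.8 and 19.6 CPM in KO 1 and KO 3, against 18.3 and 23.2 CPM in WT 1 and WT 3, so the groups overlapped (log2 fold change -0.31 ± 0.27 as SE; edgeR unadjusted p = 0.306, adjusted p = 1). Within number 1 the log2 difference of Mettl3, KO minus WT, was -0.4, and within number 3 it was -0.25. The count covers the whole gene, and which exons were removed is not labelled, so it does not check the genotype. Total counts were 55100415 to 79209870 per library. All 7 macrophage markers were above 1 FPKM in every library. Of markers of other cells, Cd3e and Cd8a (T cells), Ly6g and Cxcr2 (neutrophils) and Epcam, Krt8 and Krt18 (epithelium) were listed at 0 in all 4 libraries. The 6 epithelial markers still summed to 0.604 and 0.422 FPKM in KO, against 0.213 and 0.441 FPKM in WT, nearly all of it Krt19, with 3 of the 6 with a count. The 6 neutrophil markers had a summed level of 24.6 and 33.3 FPKM in the KO libraries, against 18.1 and 23.1 FPKM in the WT libraries, nearly all of it S100a8, with 4 of the 6 with a count. The 10 T and NK cell markers summed to 5.51 and 5.50 FPKM in KO, against 4.03 and 5.88 FPKM in WT, nearly all of it Cd4. Of the 10, 8 had a count and 1 reached 1 FPKM in every library. The 6 fibroblast markers, led by Col1a1, summed to 35.8 and 52.7 FPKM in KO, against 44.7 and 86.6 FPKM in WT. The part of these cells in the Schlafen levels was not tested.

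The rest of the region was read from the same fit. Of the 41 other rows within 250000 bases of the members, 20 were tested, with 11 log2 fold changes above 0 and 9 below, and a median of 0.10. With edgeR there were 0 calls, and 1 of the 20 was under 0.05 before adjustment, against 2.27% of all genes tested. Both KO libraries lay above both WT libraries for 30% of the 20 and below for 15%, where 13.1% and 13.4% of all genes tested did so. Slfn10-ps, a transcribed pseudogene between Slfn8 and Slfn2, stood at 13.5 and 17.4 CPM in the KO libraries, against 18.1 and 18.3 CPM in the WT libraries (log2 fold change -0.24 ± 0.22 as SE; edgeR unadjusted p = 0.332, adjusted p = 1). Its fitted value was below 0 and those of the coding members on either side above 0, but it lay little more than its SE from 0. The log2 difference of Slfn10-ps within number 3 was -0.08. The split of reads between Slfn10-ps and Slfn8 or Slfn9 is uncertain. Ap2b1, a subunit of the clathrin adaptor, stood at 269.8 and 255.9 CPM in KO, against 263.3 and 286.5 CPM in WT. Gm11427, at the Slfn3 end of the cluster, had a log2 fold change of 0.56 ± 0.33, and shares sequence with Slfn3 and Slfn4. Zfp830 had a log2 fold change of 0.14 ± 0.22. Unc45b, a myosin chaperone, was at 0 CPM in both KO libraries and at 0.884 and 0.242 CPM in WT. Slfn5os, on the strand opposite to Slfn5, had 17 to 26 counts per library, and Gm20234, opposite to Slfn2, 26 to 42. Slfn14, an endoribonuclease of platelets and red cells, and Slfnl1, on chromosome 4, were listed at 0 counts in all 4 libraries.

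**Figure D4:**
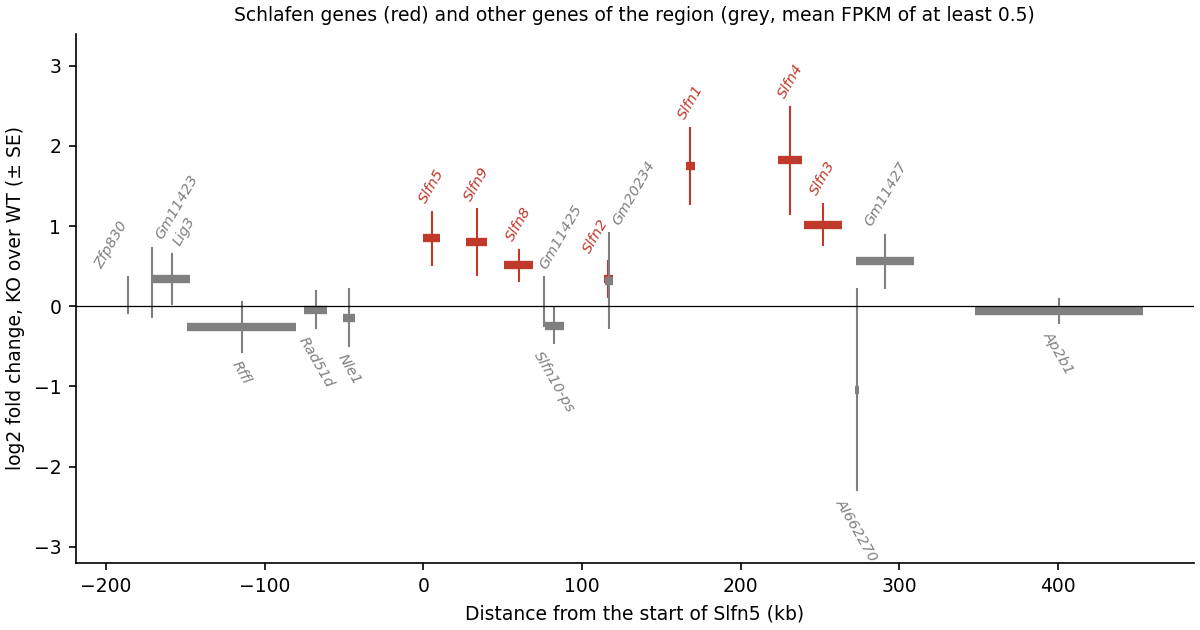
Log2 fold change (KO over WT, ± SE) against distance from the start of Slfn5 in kb, with each gene drawn over its length, the 7 Schlafen members in red and 12 other tested genes with a mean of at least 0.5 FPKM in grey. The members lie between 0.34 and 1.82, and Slfn10-ps among them at -0.24.

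The pathway that induces Schlafen genes was read in the order of its parts. Of 18 genes listed for interferon signalling, 17 were tested, and 0 passed edgeR and 0 passed DESeq2. At an unadjusted edgeR p under 0.05 there were 3 of the 17, against 2.27% of all genes tested. Of these 3, Usp18 is also on the list of interferon-stimulated genes below, so it is counted in both lists. The median log2 fold change of the 17 was 0.13, against 0 over all genes tested. Of the ligands, Ifnb1 had too few counts to test, and Ifng stood at 0.368 and 0.152 CPM in KO, against 0 and 0.339 CPM in WT. The type I receptor chain Ifnar1 stood at 162.3 and 363.7 CPM in KO, against 206.1 and 210.2 CPM in WT, and Ifnar2 at 167.2 and 222.2 CPM in KO, against 173.7 and 214.7 CPM in WT, so both overlapped between genotypes. The type II receptor chains Ifngr1 and Ifngr2 had log2 fold changes of -0.11 and 0.08, and the kinases Jak1, Jak2 and Tyk2 had 0.01, 0.31 and 0.13. The transcription factors were split. Stat2, which acts downstream of IFNAR, stood at 259.2 and 283.6 CPM in KO, against 180.5 and 113.9 CPM in WT (log2 fold change 0.88 ± 0.27 as SE; edgeR unadjusted p = 0.0243, adjusted p = 1). Irf7 had a log2 fold change of 0.75 ± 0.36 and Irf1 one of 0.22 ± 0.16, while Irf8 had -0.60 ± 0.34 and Irf9, a DNA-binding partner of STAT2, -0.16 ± 0.18. Among inhibitors, Usp18, which blocks IFNAR signalling, stood at 47.7 and 59.4 CPM in KO, against 29.2 and 24.6 CPM in WT, Socs3 had a log2 fold change of -0.17 ± 0.45, and Socs1 stood at 0.208 and 1.18 CPM in KO, against 6.26 and 1.39 CPM in WT.

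The members were also set beside a list of 44 interferon-stimulated genes. Log2 fold changes ran from 0.34 to 1.82 over the 7 members (median 0.85) and from 0.33 to 2.21 over the 44 (median 0.78), against a median of 0 over all genes tested. Medians for number 1 alone were 0.58 for the members and 0.48 for the 44, and for number 3 alone 1.17 and 1.05. Both KO libraries lay above both WT libraries for 38 of the 44 (86.4%), against 13.1% of all genes tested. The difference was larger within number 3 for 42 of the 44, against 48.6% of all genes. DESeq2 with genotype alone called 9 of the 44 and 0 of the 7, against 0.381% of the genes to which it gave an adjusted p. With edgeR 0 of either were called, and 33 of the 44 had an unadjusted p under 0.05, against 2.27% of all genes. The 2 lists share their libraries, and that interferon-stimulated genes stood high in KO was known when the members were chosen, so the likeness is no independent support. Lgals3bp, a secreted glycoprotein and the most abundant of the 44 by FPKM, stood at 989.3 and 1056 CPM in KO, against 771.1 and 588.8 CPM in WT. Bst2, which tethers virus particles, overlapped between genotypes, with 132 and 204.2 CPM in KO, against 85.2 and 145.6 CPM in WT. Isg15, a ubiquitin-like modifier, differed by 1.65 ± 0.46 on the log2 scale (± SE), Rtp4 by 1.23 ± 0.21, Ifit1 by 1.57 ± 0.26 and Ifit2 by 1.91 ± 0.30.

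**Figure D5:**
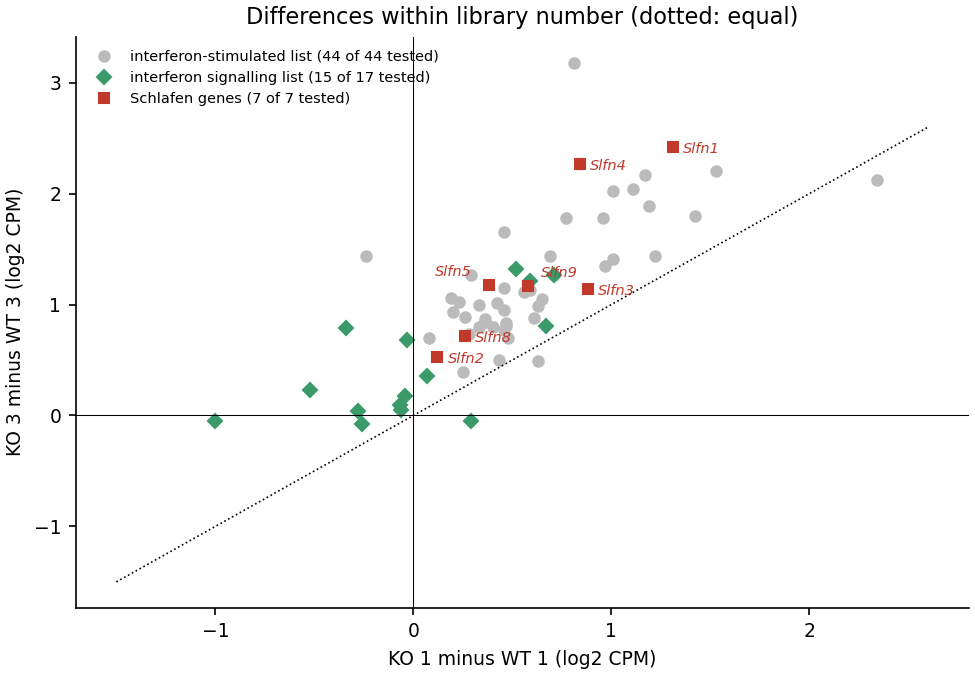
Log2 CPM difference KO 3 minus WT 3 against KO 1 minus WT 1 for the 7 Schlafen genes (red), 44 interferon-stimulated genes (grey) and 15 of 17 tested interferon signalling genes (green), with a dotted line where both are equal. The members run from 0.12 and 0.53 for Slfn2 to 1.31 and 2.42 for Slfn1, all above the line, and Ifng and Socs1 lie outside the axes.

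The genes with the most similar pattern were sought among 8372 genes with a mean of at least 10 CPM, by the distance between log2 CPM values centred over the 4 libraries. Slfn2 was nearest to Ythdc1 (distance 0.012 on the log2 scale), which stood at 85.0 and 118.4 CPM in KO, against 77.6 and 82.5 CPM in WT. Trmt5, Plekhf2, Ascc3 and Abraxas2 followed at 0.059 to 0.064. Slfn3 was nearest to H2-T24 (distance 0.046) and Tap1 (0.059), then Nagpa, Ddx60 and Usp18 at 0.163 to 0.191. The distance rests on 4 libraries, and nearness in it is a description.

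The members also differed in GGACT, the letters most often methylated by the METTL3 complex. In the longest-coding transcript it occurred 2.40 times per kb in Slfn2, 2.25 in Slfn9, 2.24 in Slfn8, 2.03 in Slfn3 and 2.02 in Slfn4, but 0.54 times in Slfn1 and 0.50 in Slfn5. The median over 21877 coding genes was 1.02 per kb, with quartiles of 0.55 and 1.52. Slfn1 and Slfn4, with the largest log2 fold changes, were on opposite sides of that median. A link between GGACT and fold change was not tested. The values per kb cover whole transcripts, which differ in their noncoding part. The Slfn3 transcript had 1966 nt, of which 1920 nt were coding, and that of Slfn5 5979 nt, of which 2652 nt were coding. Methylation was not measured in these libraries.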

How the data were processed

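Poly(A) RNA of 4 libraries was sequenced as read pairs from a strand-marking (dUTP) preparation, per the labels' protocols. The submitters' processing notes name cutadapt 1.9, HISAT2 2.0.4, StringTie 1.3.4d, edgeR and DESeq2, without a genome build or strand setting. The authors deposited 1 table with, per the file headers, a count and an FPKM value per gene and library. The deposited counts are taken as estimated counts: they were whole, but 38.7% to 39.5% of low values (1 to 24) were multiples of 4, so a count does not give its number of fragments. The deposited FPKM values write 0 as 0.0001. A further 4 value columns matched no sample and were not used. Start and end equalled those of GENCODE M21 (GRCm38) for 94.2% of the 55141 genes found in both, and for 10 of 11 Slfn symbols (Slfn5 ends earlier in the table).

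Estimated counts were tested as deposited with edgeR 4.0.16 in R 4.3.3 (TMM, filterByExpr, quasi-likelihood, two-sided, Benjamini-Hochberg over 17260 genes, threshold 0.05). Each SE is the fold change over the root of F. Differences within a number use log2 CPM with a prior count of 2. Alternatives were DESeq2 1.42.0, limma 3.58.1 on FPKM, other scalings, no filter, counts divided by 4, a replicate block and each library left out. Named genes were the members, Mettl3, the tested interferon signalling genes and, of the 44 interferon-stimulated genes and the neighbours, the 3 most abundant by FPKM and the 3 with the smallest p, and the 5 nearest in pattern to the most abundant member and to the one with the smallest p. Markers, Xist, overlapping genes and other Slfn symbols were added. Members and lists were chosen with earlier results of these data known. A few genes of these lists are counted in them but not reported here by name.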

Additional observations from a re-analysis of the deposited data

Results flagged for a closer look

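For 12 named genes that are not Schlafen members, the log2 difference KO minus WT had opposite signs within number 1 and within number 3. Each is 1 pair of libraries per number, so the difference between numbers was not tested. Among receptors, Ifnar1 stood at -0.34 within number 1 and 0.79 within number 3, Ifnar2 at -0.06 and 0.05, Ifngr1 at -0.52 and 0.23, and Ifngr2 at -0.04 and 0.18. Among kinases, Jak1 stood at -0.07 and 0.09, Jak2 at -0.03 and 0.68, and Tyk2 at 0.29 and -0.05. Ifng, with under 0.4 CPM in every library, stood at 3.68 and -1.02, Socs3 at -0.28 and 0.04, and Ap2b1 at 0.04 and -0.16. Xist, the sex-linked transcript, stood at 0.08 and -0.22, with only 0.624 and 0.589 CPM in KO 1 and WT 1. Krt19, an epithelial marker with at most 1.2 CPM in any library, stood at 1.56 and -0.05. None of the 7 Schlafen members had opposite signs, which follows from both KO libraries lying above both WT libraries for each. Of the 17260 genes tested, 8752 were above 0 within number 1, 8262 within number 3 and 4449 within both, so opposite signs were common.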

How the results depend on the processing

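All 7 Schlafen members kept a log2 fold change above 0 in every alternative run, and 0 members, 0 interferon-stimulated genes and 0 genes in all were called by edgeR and limma under each of them, with any 1 library left out (lowest 0, highest 0 for each count) included. DESeq2 called 73 genes, of them 9 interferon-stimulated, and 0 members. The groups share the replicate numbers 1 and 3 without a label that says what a number marks. Deviations of KO 1 and WT 1 from their group means correlated at 0.419 over genes. With the replicate block DESeq2 called 170 of 16421 genes, 18 of the interferon-stimulated list and 2 members, Slfn1 (log2 fold change 1.87, DESeq2 adjusted p = 0.000788) and Slfn4 (1.57, DESeq2 adjusted p = 0.0149), while edgeR with the block called 0. Leaving out 1 library mixes number with genotype. It moved Slfn4 between 0.62 and 2.48, Slfn1 between 1.27 and 2.49, Slfn9 between 0.37 and 1.43 and Slfn5 between 0.34 and 1.24. Slfn4, Slfn3 and Slfn1 have the fewest counts of the family, 149 to 1968 per library, and counts do not equal fragments.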
